A study of Mus musculus with 16 samples.

Results

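The 10 genes described here encode granule proteins, S100 proteins and a cytokine of neutrophils: S100a8, S100a9, Mpo, Elane, Ltf, Camp, Ngp, Lcn2, Mmp9 and Il1b. They were followed in lungs of T1α(-/-) and T1α(+/+) mice at term and at day 18.5 of gestation (E18.5). They were chosen by name and because neutrophil genes were lower in (-/-) lungs at term. The difference between genotypes at term was therefore used in choosing them, and it is given below as a description with no test. On the array, 13 of the 12422 probe sets that are not controls carry 1 of these symbols alone, with 2 probe sets each for Mpo, Lcn2 and Mmp9 and 1 for each of the other 7 genes.

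T1α, also called podoplanin (Pdpn), is a membrane protein of the type I cells that line the alveolar sacs, and (-/-) mice lack it in every tissue from conception. Pups of (-/-) genotype die at birth of respiratory failure. Both genotypes came from matings of heterozygous parents, and term pups were taken within minutes of natural delivery. Total RNA of 3 (-/-) and 3 (+/+) lungs at term, and of 5 (-/-) and 5 (+/+) lungs at E18.5, was hybridised to 16 Affymetrix Murine Genome U74Av2 arrays. Each array is named by the letter in its label: F, G and H for (-/-) and N, O and P for (+/+) at term, and A to E for (-/-) and I to M for (+/+) at E18.5. Litter and batch are not given in the sources used here, so p-values measure the spread between these lungs.

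Neutrophils build their granules in a fixed order while they mature. Promyelocytes make the azurophil granules, with myeloperoxidase (Mpo) and neutrophil elastase (Elane), and later stages make the specific granules, with lactoferrin (Ltf), cathelicidin (Camp), neutrophilic granule protein (Ngp) and lipocalin 2 (Lcn2), followed by the gelatinase granules with matrix metalloproteinase 9 (Mmp9). S100a8 and S100a9 join into calprotectin, a calcium- and zinc-binding complex that fills the cytosol of mature neutrophils and is also made by monocytes. Several of the genes, Lcn2 and Ltf among them, are also made by epithelial cells. A whole-lung sample does not tell these sources apart.

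The values are signals of the array software, linear intensities scaled so that arrays can be compared. T1α itself measured 9.0, 8.6 and 30.0 on the term (-/-) arrays, against 88.5, 39.7 and 214.9 on the term (+/+) arrays. At E18.5 it was 1.4 to 21.2 on the (-/-) arrays and 60.2 to 135.5 on the (+/+) arrays. The genotypes did not overlap at either time. Probes for bacterial transcripts that were not spiked in reached at most 11.3 to 31.5 on 15 of the arrays, which shows the signal given by probe sets with no target. On (+/+) array I at E18.5 they reached 107.7 and averaged 35.3, against averages of 3.58 to 11.1 on the other arrays. Leaving this array out changed no call of the 10 genes, and the values that moved most are given without it below. The ratio of 3′ to 5′ GAPDH signal, a measure of RNA integrity, was 1.11, 2.63 and 0.827 on term (-/-) arrays F, G and H, and 1.84, 2.55 and 0.853 on term (+/+) arrays N, O and P. At E18.5 it was 0.972 to 1.72 on (-/-) arrays and 0.962 to 1.59 on (+/+) arrays. The part of RNA integrity in the changes between E18.5 and term was not tested.

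The presence of neutrophils was checked against their defining markers. On the 6 term arrays Ly6g was 7.1 to 15.3, Cxcr2 4.7 to 14.5, Itgam 2.2 to 10.4, Mmp8 4.5 to 7.4 and cathepsin G (Ctsg) 0.4 to 2.9. These signals lie in the range of the bacterial probes. Other genes that neutrophils express were above that range on all 6 term arrays. Csf3r, the receptor of the growth factor for granulocytes, was 114.3 to 212.8 on term (-/-) arrays and 132.5 to 206.7 on term (+/+) arrays. Pglyrp1, a granule protein that binds peptidoglycan, was 207.2 to 433.6 and 143.3 to 242.5 on the same arrays, and Ncf1, a subunit of the NADPH oxidase, was 109.4 to 158.2 and 124.5 to 202.8. All of these markers were picked after their values were seen. The genes are therefore called granule and S100 genes here, and no cell type is assigned to their signal. In whole lungs, fewer cells of a type and less RNA per cell cannot be told apart.

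S100a8 and S100a9 lie near each other on chromosome 3 (GRCm38.p6), at chr3:90669071-90670034 and chr3:90692630-90695721, and both rose between E18.5 and term. S100a8 (probe set 103448_at) measured 241.6, 309.9 and 214.9 in the term (-/-) lungs and 575.7, 493.5 and 254.6 in the term (+/+) lungs. At E18.5 it measured 136.6, 138.9, 117.7, 167.1 and 180.3 in (-/-) lungs and 131.1, 277.0, 93.6, 283.5 and 216.7 in (+/+) lungs. All 3 (-/-) lungs were higher at term than all 5 at E18.5, whereas (+/+) array P at term lay among the E18.5 values. Over both genotypes S100a8 rose at term, with a log2 fold change of 0.92 over E18.5 (SE 0.22, limma adjusted p = 0.00261, n = 16 arrays). Fold changes are on the log2(signal + 16) scale, which understates the change of low signals.

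S100a9 (103887_at), the partner of S100a8 in calprotectin, measured 100.3, 153.8 and 144.1 in the term (-/-) lungs and 271.0, 288.3 and 193.7 in the term (+/+) lungs. At E18.5 it measured 68.1, 71.4, 70.4, 95.8 and 100.9 in (-/-) lungs and 37.0, 149.2, 68.7, 81.4 and 92.6 in (+/+) lungs. The term (+/+) lungs stood above every other array, and the term (-/-) lungs overlapped the E18.5 (-/-) lungs only at the edge, with F just under E. S100a9 rose at term over both genotypes, with a log2 fold change of 1.04 (SE 0.20, limma adjusted p = 0.000366, n = 16 arrays). The change was 0.61 in (-/-) lungs and 1.47 in (+/+) lungs, and for S100a8 it was 0.72 and 1.11. Without array I the term change over both genotypes was 0.86 for S100a8 and 0.93 for S100a9, and both were still called. The difference between the genotypes' changes contains the term genotype difference that chose the genes, so it was not tested. The change over both genotypes also uses the term lungs that chose the genes, so its calls are not fully free of that choice.

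**Figure D1:**
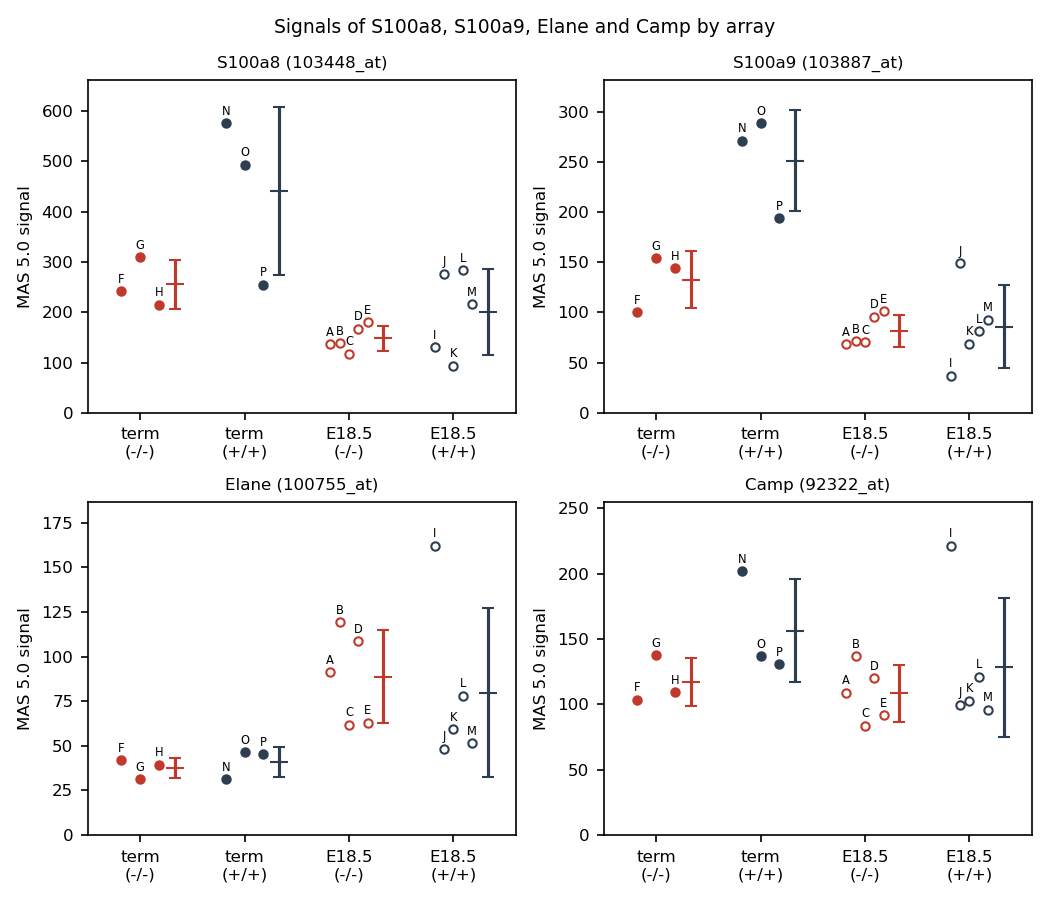
MAS 5.0 signal (linear, from 0) of S100a8, S100a9, Elane and Camp on each array, with (-/-) lungs in red and (+/+) lungs in dark blue, filled at term and open at E18.5; letters name the arrays and bars show the mean ± SD. S100a9 was at 193.7 or more in term (+/+) lungs and at 153.8 or less in term (-/-) lungs, Elane was at 46.5 or less on all term arrays, and array I stands apart for Elane and Camp.

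Elane (100755_at), the serine protease of azurophil granules, went the other way. It measured 41.9, 31.3 and 39.4 in the term (-/-) lungs and 31.2, 46.5 and 45.3 in the term (+/+) lungs. At E18.5 it measured 91.2, 119.4, 61.8, 108.5 and 63.0 in (-/-) lungs and 162.1, 48.3, 59.4, 78.0 and 51.3 in (+/+) lungs. Every term lung was below every E18.5 lung of either genotype. Elane fell at term, with a log2 fold change of -0.79 (SE 0.21, limma adjusted p = 0.00477, n = 16 arrays), and of -0.67 without array I, which was still called. It passed the filter on low signals, a group median over 51.3, only through the E18.5 lungs, where it was high, and it was called with no filter as well. The other azurophil gene, Mpo, gave signals too low for the same test.

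Across the 13 probe sets, 7 passed the filter on low signals for this comparison of term with E18.5, and S100a8 and S100a9 were called higher and Elane lower. Over all 6458 probe sets tested, 21.0% were called higher and 22.9% lower at term, so calls in either direction were common in these lungs. The called count therefore says little about the genes as a group, and the values of each gene carry the description. The other 4 probe sets that passed were Ltf, Camp and both Lcn2 probe sets, with log2 fold changes of -0.05 to 0.39 and adjusted p of 0.290 to 0.875.

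The bases upstream of the start sites of the 3 called genes are shown beside those of Camp, which passed the filter and was not called, so that the sequences before genes that rose, fell and did neither can be compared. They are the 250 bases before each start in RefSeq (mouse build GRCm38.p6), 5′ to 3′ on the strand of the gene, at chr3:90668821-90669070 (plus strand) for S100a8, chr3:90695722-90695971 (minus strand) for S100a9, chr10:79886062-79886311 (plus strand) for Elane and chr9:109849457-109849706 (minus strand) for Camp. Capitals mark matches to TATAA on the strand of the gene (the core of a TATA box), and, on either strand, to TTNNGNAA (a loose form of the site bound by C/EBP factors) and GAGGAA (a core bound by PU.1), the factors that direct myeloid genes.
S100a8: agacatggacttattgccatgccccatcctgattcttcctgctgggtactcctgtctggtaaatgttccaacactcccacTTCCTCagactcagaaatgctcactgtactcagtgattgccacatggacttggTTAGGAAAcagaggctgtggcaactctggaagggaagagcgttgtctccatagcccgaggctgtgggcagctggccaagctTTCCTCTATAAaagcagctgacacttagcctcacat
S100a9: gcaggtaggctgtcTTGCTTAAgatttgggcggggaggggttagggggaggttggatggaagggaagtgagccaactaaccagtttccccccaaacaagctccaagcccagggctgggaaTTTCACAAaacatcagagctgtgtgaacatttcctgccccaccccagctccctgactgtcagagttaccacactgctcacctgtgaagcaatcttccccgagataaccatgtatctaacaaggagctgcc
Elane: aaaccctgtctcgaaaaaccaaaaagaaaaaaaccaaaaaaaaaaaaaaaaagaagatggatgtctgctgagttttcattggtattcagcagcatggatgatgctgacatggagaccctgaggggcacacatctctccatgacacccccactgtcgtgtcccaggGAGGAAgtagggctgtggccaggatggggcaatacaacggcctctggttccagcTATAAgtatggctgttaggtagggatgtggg
Camp: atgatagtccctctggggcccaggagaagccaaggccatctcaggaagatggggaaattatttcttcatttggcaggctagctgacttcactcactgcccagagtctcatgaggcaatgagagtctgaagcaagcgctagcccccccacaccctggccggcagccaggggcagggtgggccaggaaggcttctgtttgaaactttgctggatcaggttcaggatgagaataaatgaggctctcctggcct

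TATAA stood 30 bases before the start of S100a8, where it abuts a reverse match to GAGGAA without overlap, and 31 bases before the start of Elane. S100a9 had no match to TATAA and 2 to TTNNGNAA, and Camp had no match to any of the 3 motifs. The promoter table used here held 9 of the 10 genes, and Mmp9 was not analysed. TATAA was found in 3 of the 9, TTNNGNAA in 6 and GAGGAA in 5, against 16%, 36.8% and 23.3% of all 32851 promoters of the same length. A match is a run of letters and not a measured binding site.

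At E18.5 none of the 5 genes that could be tested was called different between the genotypes. Of the 13 probe sets, 6 passed the filter on low signals in the 10 E18.5 arrays and 0 were called by limma, where 2 of all 5879 probe sets tested were called (0.0340%), T1α and 1 unnamed probe set. The log2 fold change of (-/-) over (+/+) was -0.31 for S100a8 (95% CI -0.87 to 0.26, adjusted p = 0.888) and 0.02 for S100a9 (95% CI -0.54 to 0.57). It was 0.20 for Elane (95% CI -0.39 to 0.80) and -0.17 for Camp (95% CI -0.65 to 0.31). The 2 Lcn2 probe sets gave 0.22 (95% CI -0.41 to 0.85) and 0.19 (95% CI -0.45 to 0.84). Each interval reached a size of 0.57 or more in at least 1 direction, so the lack of a call does not show equal levels. Of the 6, 0 had an unadjusted limma p under 0.05, and 0 passed the methods' t-test at its threshold. These differences moved with single arrays. That of S100a8 was -0.42 without array I, -0.53 without K and -0.16 without L. That of Elane was 0.46 without I and 0.09 without J, and Lcn2 161684_r_at had 0.48 without I in place of 0.19. S100a9 had -0.20 without I. None of these was called. All 13 probe sets overlapped between the genotypes at E18.5, and 6 of the 13 differences were negative, and 57.1% of the differences of all probe sets were negative.

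**Figure D2:**
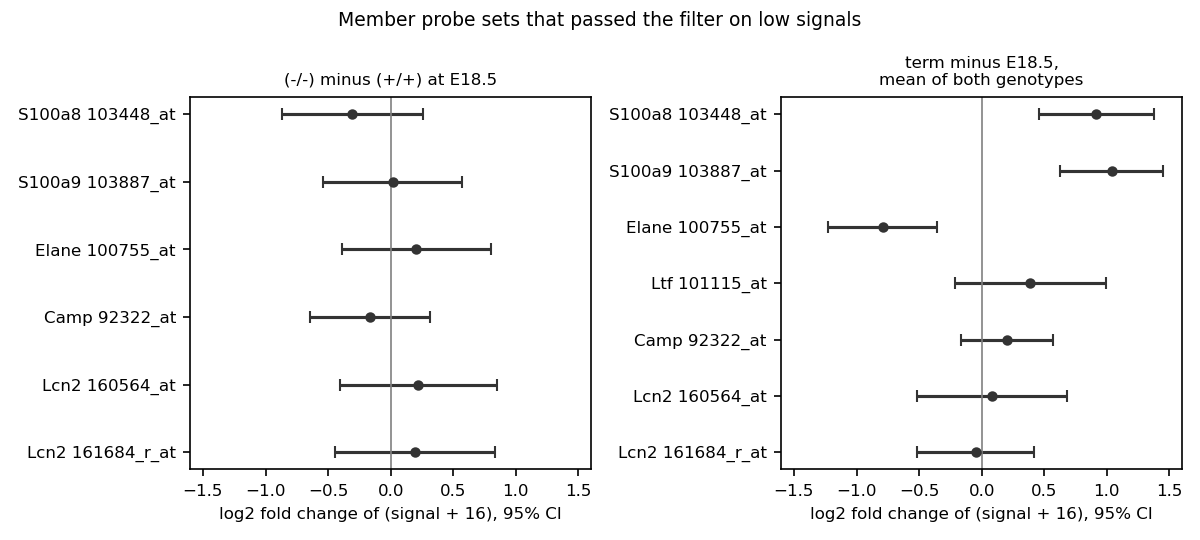
Log2 fold changes of signal + 16 with 95% confidence intervals from limma, for (-/-) over (+/+) lungs at E18.5 (left, 10 arrays) and for term over E18.5 averaged over both genotypes (right, 16 arrays). All 6 intervals on the left include 0, and on the right those of S100a8, S100a9 and Elane do not.

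At term, where the genes were chosen, 12 of the 13 differences of (-/-) minus (+/+) were negative, with a median of -0.36 on the log2 scale and a range of -0.90 to 0.16. Over all 12422 probe sets, 49% of differences were negative and the median was 0.00. S100a9, Ngp and Mmp9 (99957_at) were lower in all 3 (-/-) lungs than in all 3 (+/+) lungs. Groups that do not overlap in this direction made up 2.45% of all probe sets, and 1.94% of the 5885 that passed the filter on low signals at term, which S100a9 alone of the 3 did. Nothing is read from these counts, since this difference chose the genes. A test of 3 against 3 lungs could not reach an exact p under 0.1.

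S100a8 averaged 256 ± 49.0 in (-/-) and 441 ± 167 in (+/+) lungs at term (SD, n = 3 each), a log2 difference of -0.69, and the genotypes overlapped because (+/+) array P, at 254.6, lay below (-/-) array G. S100a9 had a difference of -0.84. Within each genotype S100a8 was higher on the arrays with GAPDH 3′ to 5′ ratios of 1.84 or more: G in (-/-) lungs, with 309.9, and N and O in (+/+) lungs, with 575.7 and 493.5. Arrays F, H and P, with ratios of 0.827 to 1.11, had S100a8 signals of 241.6, 214.9 and 254.6. For S100a9 the same 3 arrays had 100.3, 144.1 and 193.7. The 3′ to 5′ ratio of β-actin was 1.549, 1.969 and 1.456 on F, G and H, and 2.715, 1.347 and 1.301 on N, O and P. By this second ratio array O lay among F, H and P. The part of RNA integrity in the difference was not tested.

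The specific granule genes varied more from lung to lung. Ltf (101115_at), the iron-binding lactoferrin, measured 39.9, 45.4 and 11.9 in term (-/-) lungs and 42.0, 128.6 and 58.3 in term (+/+) lungs. At E18.5 it measured 23.6, 11.6, 18.4, 50.2 and 52.9 in (-/-) lungs and 42.8, 56.5, 6.7, 44.9 and 45.5 in (+/+) lungs. Array O stood highest, and the 4 groups overlapped. Its log2 fold change at term over both genotypes was 0.39 (95% CI -0.22 to 0.99, limma adjusted p = 0.290). Ltf passed the filter only through the term (+/+) lungs, where it was high.

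Camp (92322_at), the precursor of the antimicrobial peptide cathelicidin, measured 103.7, 137.9 and 109.6 in term (-/-) lungs and 202.1, 136.7 and 130.7 in term (+/+) lungs. At E18.5 it measured 109.0, 137.0, 83.7, 120.3 and 91.8 in (-/-) lungs and 221.5, 99.8, 102.8, 121.2 and 95.9 in (+/+) lungs. All 4 groups overlapped, and the 2 highest signals were those of (+/+) arrays I and N. Its log2 fold change at term was 0.20 (95% CI -0.16 to 0.57, limma adjusted p = 0.367), and 0.30 without array I, which was not called. Without array I the E18.5 difference of (-/-) minus (+/+) was 0.03 in place of -0.17.

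Ngp (96153_at), a cystatin-like protein of the same granules, measured 9.9, 14.1 and 13.2 in term (-/-) lungs and 76.6, 16.9 and 15.2 in term (+/+) lungs. It was 10.7 to 27.5 in (-/-) lungs and 12.6 to 47.3 in (+/+) lungs at E18.5. The gap between the genotypes at term was 1.1 signal units at its narrowest, and array N made most of the difference in means. Ngp was above the highest bacterial probe of the same array on 7 of the 16 arrays.

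Lcn2, which binds bacterial siderophores, has 2 probe sets that did not follow each other. Probe set 160564_at measured 64.8, 16.5 and 107.6 in term (-/-) lungs and 58.7, 46.7 and 143.9 in term (+/+) lungs. Probe set 161684_r_at measured 40.6, 75.2 and 44.8 in the same (-/-) lungs and 60.8, 65.6 and 47.4 in the same (+/+) lungs. Array G was the lowest of the term arrays on the first and the highest on the second, and P was the highest on the first. The log2 fold changes at term over both genotypes were 0.08 and -0.05 (limma adjusted p = 0.839 and 0.875), so no direction can be given for Lcn2.

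The remaining genes were near the level of the bacterial probes. Mmp9 (99957_at), a gelatinase, measured 15.1, 23.1 and 5.5 in term (-/-) lungs and 26.0, 30.1 and 44.6 in term (+/+) lungs. At E18.5 it was 7.1 to 15.9 in (-/-) lungs and 5.8 to 18 in (+/+) lungs. All 3 term (+/+) lungs were above every other array, and they were the 3 of 16 arrays on which it exceeded the highest bacterial probe. The log2 difference of term minus E18.5 was 0.15 in (-/-) lungs and 0.96 in (+/+) lungs. It did not pass the filter on low signals. With no filter, where 10.9% of all probe sets were called higher at term, it was called, and nothing is read from that call, since the same 3 arrays chose the gene. The second Mmp9 probe set, 162369_f_at, never exceeded the bacterial probes and measured 1.6 to 7.1 in term (-/-) and 4.6 to 5.9 in term (+/+) lungs.

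Mpo, the peroxidase of azurophil granules, has 2 probe sets. They measured 4.2 to 16.4 (100414_s_at) and 16.4 to 23.4 (100415_at) in term (-/-) lungs, and 14.5 to 17.5 and 12.5 to 20.3 in term (+/+) lungs. At E18.5 they were 5.0 to 19.1 and 5.6 to 38.4 in (-/-) lungs, and 6.6 to 29.6 and 5.3 to 35.1 in (+/+) lungs. The probe sets differed in sign at term, with -0.33 and 0.16 for (-/-) minus (+/+), and 100415_at was the 1 probe set of the 13 with a positive difference. Their exact permutation p for (-/-) against (+/+) at E18.5 was 0.167 and 0.833, where 5 against 5 arrays allow 0.00794 at the lowest.

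Il1b (103486_at), the cytokine interleukin-1β, measured 15.3, 13.8 and 17.8 in term (-/-) lungs and 40.3, 16.3 and 12.7 in term (+/+) lungs. At E18.5 it was 1.8 to 26.1 in (-/-) lungs and 3.5 to 46.4 in (+/+) lungs, the highest being array I. It exceeded the bacterial probes on 3 of 16 arrays. Its exact permutation p was 0.135 for term against E18.5 within genotypes and 0.516 for the genotypes at E18.5. For Ngp these were 0.784 and 0.508.

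**Figure D3:**
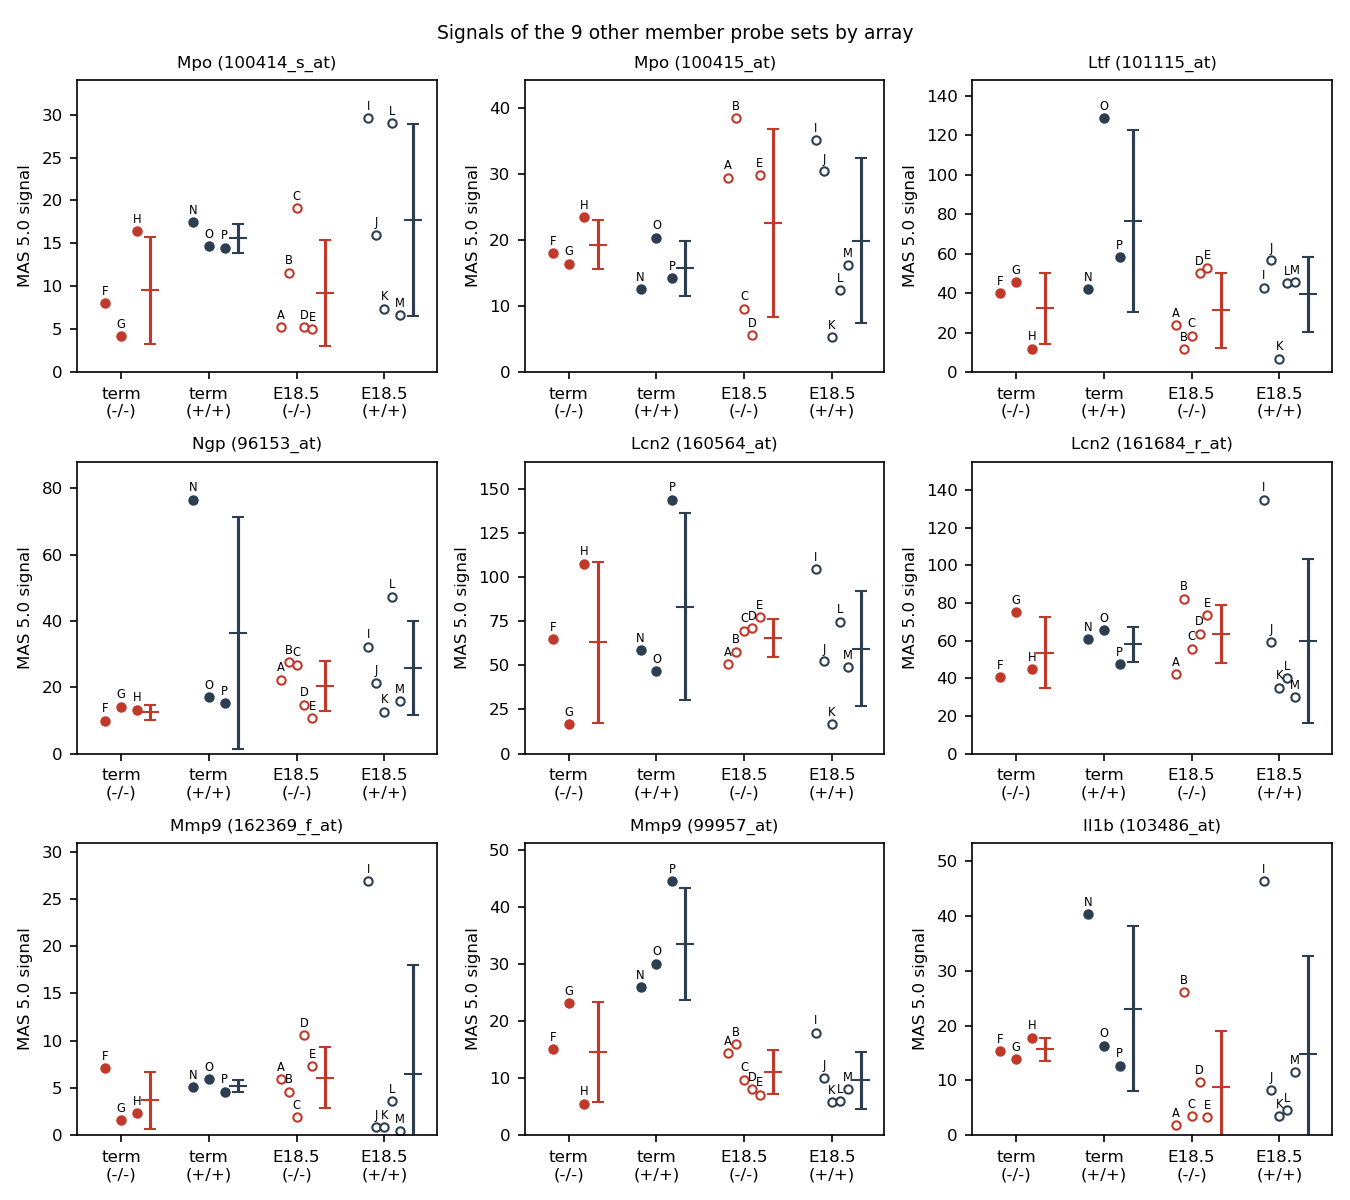
MAS 5.0 signal (linear, from 0) of the other 9 probe sets on each array, with colours, letters and mean ± SD as for S100a8; error bars that would pass below 0 are cut there. Mmp9 99957_at was 26.0 to 44.6 in term (+/+) lungs and 5.5 to 23.1 in term (-/-) lungs, and array I is the highest E18.5 (+/+) array in 7 of the 9 panels.

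Within the term (+/+) lungs the genes did not rank the arrays alike. Array N was the highest of the 3 for S100a8, Camp, Ngp and Il1b. Array O was the highest for S100a9 and Ltf, and array P for Mmp9 (99957_at) and Lcn2 (160564_at). Summed over the 10 genes, with 1 probe set per gene, signals were 650.5 to 762.2 in term (-/-) lungs and 913.2 to 1336.1 in term (+/+) lungs. S100a8 was the largest signal in every term sum, at 214.9 to 575.7, and S100a9 added 100.3 to 288.3. The term difference chose the genes, so nothing is read from the term sums. At E18.5 the sums were 471.1 to 651.1 in (-/-) and 375 to 830.5 in (+/+) lungs.

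The arrays were also searched for the patterns closest to that of S100a8, by Pearson's r of log2(signal + 16) over the 16 arrays, among 6458 probe sets. These are descriptions, since the arrays share labelling, scaling and the change over time. The 6 highest named probe sets were Ap1ar (r = 0.90), Cyb5r4 (0.89), Sat1 (0.88), Mgst1 (0.87), S100a9 (0.87) and Rnf11 (0.87). S100a9 was thus among the 6 nearest, and over the 10 E18.5 arrays alone its r was 0.65. Over the 16 arrays Ltf had 0.68, Camp 0.35, the Lcn2 probe sets 0.02 and -0.01, and Elane -0.63. Over the E18.5 arrays alone Ltf had 0.77, Camp -0.13, the Lcn2 probe sets 0.33 and -0.18, and Elane -0.32. Mgst1, a microsomal glutathione transferase, was 174 to 223.4 in term (-/-) and 173.2 to 283.2 in term (+/+) lungs. It was 97.7 to 162.2 in (-/-) and 83.8 to 145 in (+/+) lungs at E18.5.

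**Figure D4:**
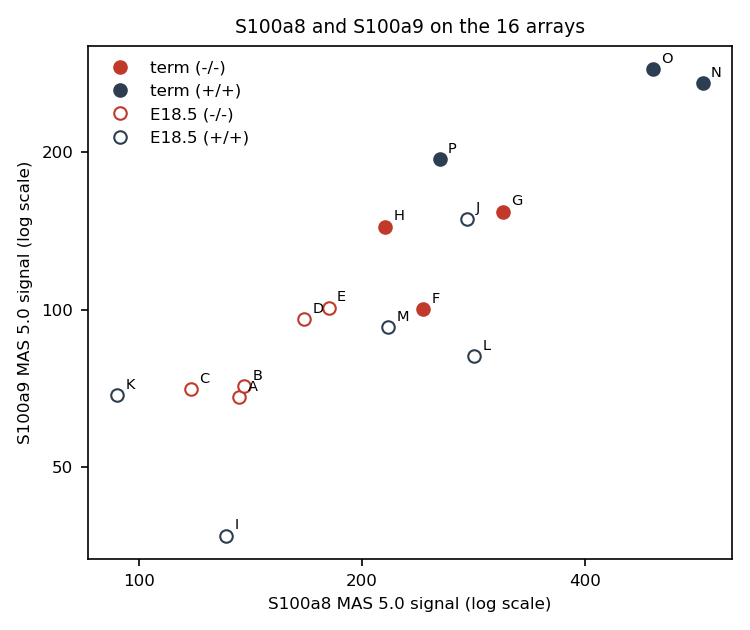
S100a8 signal (horizontal) against S100a9 signal (vertical) on the 16 arrays, both on log axes, with (-/-) in red and (+/+) in dark blue, filled at term and open at E18.5. The pair has r = 0.87, arrays N and O lie at the upper right, and array I has the lowest S100a9 signal, 37.0.

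S100a8 and S100a9 belong to a family of calcium-binding proteins, and 5 of the 8 other members tested fell over the same time. Of 14 other S100 genes listed, 11 were on the array and 8 passed the filter. Of the 8, S100g, a calcium buffer, rose at term (log2 fold change 0.80) and 5 fell: S100a1 (-0.97), S100a3 (-0.82), S100a4 (-1.04), S100a10 (-1.33) and S100a13 (-0.65). S100a6 (-0.34) and S100a14 (0.14) were not called. S100a3, S100a4 and S100g passed the filter only through the time at which they were high. Over all probe sets tested, 21.0% were called higher and 22.9% lower. The count of lower genes was 3 without array G, N or O. The median of the 8 was -0.73, against -0.06 over all probe sets tested. S100a10, the partner of annexin A2, was 278.6 to 414.8 in term (-/-) and 317.4 to 443.7 in term (+/+) lungs. At E18.5 it was 443.1 to 1159.5 in (-/-) and 703.2 to 1428.3 in (+/+) lungs. At E18.5 limma called 0 of the 7 tested between genotypes. At term S100a6 was 367.6, 518.0 and 385.9 in (-/-) lungs and 519.7, 658.5 and 531.2 in (+/+) lungs, which did not overlap, with G close to N. Of all probe sets, 2.45% were lower in (-/-) lungs at term without overlap, and nothing is read from S100a6. The remaining S100a5, S100a16 and S100b did not pass the filter.

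**Figure D5:**
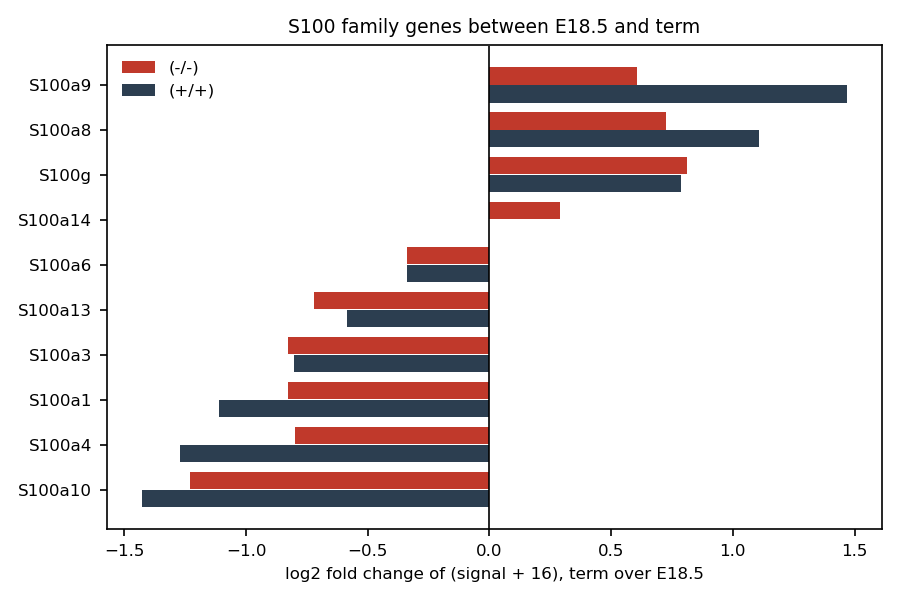
Log2 fold change of signal + 16, term over E18.5, for each S100 gene that passed the filter on low signals, as bars from 0 in (-/-) lungs (red) and (+/+) lungs (dark blue). S100a9, S100a8 and S100g lie above 0 in both genotypes, and S100a10 has the lowest mean, -1.33.

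Other genes of neutrophils moved both ways over time. Of 49 listed, 34 were on the array and 15 passed the filter, with 5 higher at term, 5 lower and a median of -0.19, where 21.0% of all probe sets were higher and 22.9% lower. Without array F or G, 3 were higher, and the median was -0.33 without array H, -0.29 without M and -0.13 without O. Cebpd, a C/EBP factor, rose by a log2 fold change of 1.78, Mgst1 by 0.76, and Chil3, a chitinase-like protein of granulocytes and alveolar macrophages, by 0.90. C5ar1, the receptor of complement C5a, was lower at -0.89, and Coro1a, an actin-binding protein of leukocytes, at -0.82. Chil3 was 111.3, 31.6 and 71.3 in term (-/-) lungs and 123.2, 96.5 and 93.1 in term (+/+) lungs. It passed the filter only through the term lungs, where it was high. Fgr, counted among the 5 lower, passed only through the E18.5 lungs. At E18.5 limma called 0 of the 14 tested between genotypes. At term the 14 tested had a median of -0.02 for (-/-) minus (+/+), with 7 of 14 negative, and none was separate between the genotypes. Below the filter, Prtn3, an azurophil protease, and Ly6g were higher in all 3 (-/-) lungs. Prtn3 was 16.4 to 21.1 in (-/-) and 12.4 to 15.6 in (+/+) lungs. Ly6g was 13.4 to 15.3 in (-/-) and 7.1 to 10.9 in (+/+) lungs. Signals of this size are near the level of the bacterial probes. Of all 12422 probe sets, 259 were higher in (-/-) lungs at term without overlap, and nothing is read from these 2 genes.

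Of 32 genes of the interleukin-1 pathway and of acute inflammation, 28 were on the array and 10 passed the filter, with 4 higher at term and 2 lower, where 21.0% and 22.9% of all probe sets were. Socs3, a feedback inhibitor of cytokine signalling, rose (1.43), as did Il1rn, the antagonist of the interleukin-1 receptor (0.93). Il1rn averaged 47.1 in term (-/-) and 70.2 in term (+/+) lungs, against means at E18.5 of 24.1 (-/-) and 24.3 (+/+). It passed the filter only through the term (+/+) lungs, where it was high. Ager, a receptor that binds S100 proteins and is abundant in type I cells, fell (-1.31), and Csf3, the granulocyte growth factor, fell (-0.68). Csf3 likewise passed the filter only through the E18.5 lungs, and Saa3, counted among the 4 higher, only through the term lungs. Socs3 was 128.4, 193.0 and 126.2 in term (-/-) lungs and 307.0, 279.2 and 130.3 in term (+/+) lungs, with array P at the level of the (-/-) lungs as for S100a8. Ptgs2, an inducible cyclooxygenase, was below the filter and was 1.5 to 6.6 in term (-/-) and 6.9 to 14 in term (+/+) lungs.

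Markers of other cells moved over the same interval. Of 16 macrophage and monocyte markers measured, 12 were tested, 4 were higher at term and 2 lower, where 21.0% and 22.9% of all probe sets were. Fcgr1, counted among the 2 lower, passed the filter only through the E18.5 lungs, where it was high. The lower calls were 0 with median centring, with no filter and without array A, B, C, H or N, 1 without any of E, F, G, I, J, K, L and O, with quantile normalization, a pseudocount of 64 or a filter at 25%, 3 without P and 4 with array weights. Cd14, the endotoxin coreceptor, rose (1.11), as did Lyz2, lysozyme (1.04). The summed signal of the 16 markers was 2823.9 to 3855.7 in term (-/-) and 3686.3 to 4222.8 in term (+/+) lungs. Lyz2 was the largest signal in every term sum, at 1321.3 to 1907.5 in (-/-) and 1714.2 to 2532.6 in (+/+) lungs. The sum is therefore no measure of the markers as a set. Of the 11 markers tested at term, 7 had a negative difference of (-/-) minus (+/+), with a median of -0.06. At E18.5 it was 1895.9 to 3776.6 in (-/-) and 1690 to 2957.4 in (+/+) lungs. Of 6 erythroid genes tested, 4 were lower at term, Hba-a1 by a log2 fold change of -1.50. Hba-x and Hbb-bh1, counted among the 4, passed the filter only through the E18.5 lungs. With quantile normalization 2 of the 6 were lower, with a median of -0.44 in place of -0.83. At term Hbb-y was 105.4, 123.8 and 64.3 in (-/-) lungs and 63.0, 56.0 and 62.9 in (+/+) lungs, which did not overlap, with H close to N. Of all 12422 probe sets, 259 were higher in (-/-) lungs at term without overlap, and nothing is read from Hbb-y. The summed erythroid signal was 6816.3 to 11211.8 in term (-/-) and 7285.2 to 7843.7 in term (+/+) lungs, and 17226.3 to 30641 in (-/-) and 13067.8 to 30896.2 in (+/+) lungs at E18.5. Hba-a1 made up most of each term sum, at 6159.4 to 10575.8 in (-/-) and 6318.4 to 7449.1 in (+/+) lungs. The part of these cells in the changes of S100a8, S100a9 and Elane was not tested.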

How the data were processed

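RNA of 16 lungs was hybridised to 1 array each. The authors computed 1 signal intensity per probe set with Microarray Suite 5.0 and scaled every array, and the deposited values are linear, from 0 to 29523.9. Precision is limited by the number of arrays. The detection p-values of the authors were not used. Probe sets were named where the platform annotation gives 1 symbol.

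The genes, lists and tests were chosen with earlier results of these data known. Signals were analysed as log2(signal + 16). A filter kept probe sets with a group median over 53.4 (E18.5), 47.7 (term) or 51.3 (all arrays), the signals exceeded by the mean share of present calls in the methods. Genes that passed it through 1 time only stayed in the counts. Genotypes at E18.5, and term against E18.5 averaged over genotypes, were compared in limma 3.58.1 (R 4.3.3, lmFit, eBayes with an intensity trend). Benjamini-Hochberg adjustment ran across every probe set in the fit, with a threshold of 0.05. The averaged contrast is independent of the term genotype difference only where both term groups have equal spread. For S100a8 the SD at term was 49.0 in (-/-) and 167 in (+/+) lungs. Probe sets under the filter were compared by exact permutation. Tests were 2-sided, and the fits were tested on simulated data. Lists were counted on the brightest probe set of each gene, with no set test. Python 3.11.15 was used with scipy 1.17.1, numpy 2.4.6, pandas 2.3.3 and matplotlib 3.10.9.

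The text names T1α, the 10 genes, other S100 genes, up to 4 genes per other list with the lowest p over time, up to 4 with the largest term differences without overlap, and the 6 closest to S100a8. Neutrophil markers and other examples outside this rule were picked after their values were seen. Over time, 2 mast cell, 0 platelet, 3 lymphocyte, 1 liver and 3 airway genes were tested, with 1, 0, 0, 0 and 1 higher and 0, 0, 1, 1 and 1 lower at term. The liver gene, Alb, passed the filter only through the E18.5 lungs, where it was high. The platelet gene Pf4, below the filter, was 13.2 to 21.3 in term (-/-) and 3.6 to 13 in term (+/+) lungs. Alternatives were quantile normalization, median centring, a pseudocount of 64 or a floor of 1, no filter or one at 25%, no intensity trend, array weights, each array left out, 1 fit of all arrays and the methods' t-test.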

Additional observations from a re-analysis of the deposited data

Results flagged for a closer look

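In 6 of 26 groups of 5 E18.5 arrays, 1 array lay far from the other 4, where chance gives about 1 in 20. All 6 were in (+/+) lungs, and 5 of them were array I, the array with high bacterial probes. Array I measured 162.1 for Elane (others 48.3 to 78.0), 221.5 for Camp (others 95.9 to 121.2), 134.9 for Lcn2 161684_r_at (others 29.9 to 59.5), 26.9 for Mmp9 162369_f_at (others 0.4 to 3.6) and 46.4 for Il1b (others 3.5 to 11.5). Array K measured 6.7 for Ltf, with the others at 42.8 to 56.5.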

How the results depend on the processing

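The count of 0 genotype calls at E18.5 and the 3 calls over time (S100a8, S100a9 and Elane) were kept under both normalizations, both pseudocount settings, both fit options and without each array. A filter at 25% left 2 calls, since Elane was no longer tested, and no filter gave 4, with Mmp9 added, a gene above the bacterial probes only on the term (+/+) arrays that chose it. The median term difference of the probe sets that passed was -0.55, with -0.73 to -0.51 when an array was left out and -0.69 to -0.36 under the other settings. Signs turned in 17 of 272 values of single probe sets in the 2 tested comparisons, all for differences that were not called. Lcn2 161684_r_at over time (-0.05) became 0.0058 with quantile normalization, 0.074 with median centring and 0.032 with array weights, and ran from -0.16 to 0.094 with an array left out. S100a9 at E18.5 (0.02) became -0.0077 with a pseudocount of 64 and -0.099 with array weights, and ran from -0.20 to 0.21. With an array left out, Lcn2 160564_at ran from -0.13 to 0.35 over time and from -0.049 to 0.42 at E18.5, and Camp at E18.5 from -0.25 to 0.028. At term Lcn2 160564_at became 0.14 without array G and 0.0060 without array P, in place of -0.40, and Lcn2 161684_r_at became 0.02 without array F, in place of -0.11. The causes were not tested. Median centring moved the median of all probe sets over time from -0.06 to 0.06, with 1567 called higher and 964 lower, against 1358 and 1482. It left 4 of the other S100 genes lower at term in place of 5, and a filter at 25% left 3 of 5 tested. Probe sets called at E18.5 over the whole array numbered 2, with 0 to 3 under the alternatives, 0 being without (+/+) array L. No paired analysis was possible because litter is not given, so any pairing of littermates is unknown.

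The design limits what can be read. With 3 lungs per genotype at term, and with Mpo, Ngp, Mmp9 and Il1b near the bacterial probes, small changes were not detectable. The GAPDH and β-actin 3′ to 5′ ratios differed between term arrays and did not rank them alike, and array I had a raised background.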
